A study of Mus musculus with 10 samples.

Results

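Windows around 5 mouse genes that respond to retinoic acid were followed in 10 chromatin immunoprecipitation and sequencing libraries of embryonic stem (ES) cells. The genes were Cyp26a1, Cyp26c1, Rarb, Nr2f2 and Zfp703. They were chosen by name with results of these same libraries already known, among them the H3K4me3 reads of the Zfp703 window after retinoic acid, so the values below are a description and support no claim that these genes stand apart. In mm9 coordinates the windows were chr19:37768500-37780000 for Cyp26a1, chr19:37755000-37768500 for Cyp26c1, chr14:17255000-17420000 for Rarb, chr7:77490000-77515000 for Nr2f2 and chr8:28082000-28096000 for Zfp703. Together they held 115 of the 1319515 bins of 2 kb on chromosomes 1 to 19 and X: 6 for Cyp26a1, 7 for Cyp26c1, 83 for Rarb, 12 for Nr2f2 and 7 for Zfp703. All 5 windows are reported.

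The series followed H3K4me3, found at active promoters, and H3K27me3, laid down at silent genes by Polycomb, before and after ES cells differentiated. The line XT67E1 (strain C3H/Pgk*129) was profiled for both marks when treated with all-trans retinoic acid (atRA) for 4 days, as embryoid bodies (EBs, cell aggregates grown for 10 days without LIF) and undifferentiated. The lines LF2 and E14 (both 129/Ola) were profiled for H3K27me3 as 10-day EBs and undifferentiated. Undifferentiated cells of the 3 lines were kept on gelatin in ES-grade serum with LIF. Each combination of line, state and mark was 1 library, and atRA was given to 1 line. Depth was 2252395 reads for every H3K4me3 library, while H3K27me3 libraries had 8380007 (XT67E1) or 4531733 (LF2, E14). Marker genes of ES cells and of differentiated cell types were not analysed here. In chromatin from many cells, fewer cells that carry a mark and less of the mark per cell cannot be told apart.

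As background, retinoic acid is made from vitamin A and enters the nucleus, where it binds receptors of the RAR family paired with RXR on DNA. The receptor pair sits on retinoic acid response elements, direct repeats of a short hexamer with a fixed gap, and switches its target genes on once the ligand is bound. Among the targets are the gene of the receptor Rarb itself and the gene of Cyp26a1, an enzyme that oxidises and so removes retinoic acid. In ES cells, genes of this kind commonly carry H3K27me3 before differentiation.

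The promoter sequences of Cyp26a1 and Rarb are shown because each holds a match to a response element, and that of Cyp26c1 because it lies beside Cyp26a1 and differs from it in H3K4me3. The sequences are RefSeq's, on build GRCm38.p6, from 250 bases before to 50 after the annotated start. They were found for 4 of the 5 genes, all but Zfp703. Positions of this build are not compared with the mm9 windows. The hexamer AGGTCA, with G also allowed as the first base and T as the third, was searched on both strands in direct repeats with a gap of 1 (DR1), 2 (DR2) or 5 bases (DR5), and capitals mark the hexamers of a match. The Cyp26a1 promoter lies on the plus strand at chr19:37697558-37697857, the Cyp26c1 promoter on the plus strand at chr19:37685430-37685729 and the Rarb promoter on the minus strand at chr14:16575427-16575726.
Cyp26a1: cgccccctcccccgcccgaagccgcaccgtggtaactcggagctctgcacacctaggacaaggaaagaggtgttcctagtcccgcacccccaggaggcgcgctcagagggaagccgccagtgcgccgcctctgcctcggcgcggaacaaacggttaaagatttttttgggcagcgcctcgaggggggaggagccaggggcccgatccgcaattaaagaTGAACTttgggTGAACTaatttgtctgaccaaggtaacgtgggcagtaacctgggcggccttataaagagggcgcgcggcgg
Cyp26c1: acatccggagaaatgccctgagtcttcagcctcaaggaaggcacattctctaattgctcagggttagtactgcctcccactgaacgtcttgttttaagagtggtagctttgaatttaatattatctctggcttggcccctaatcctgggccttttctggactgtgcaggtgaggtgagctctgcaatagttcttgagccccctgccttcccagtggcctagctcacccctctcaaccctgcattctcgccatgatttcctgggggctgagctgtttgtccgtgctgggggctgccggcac
Rarb: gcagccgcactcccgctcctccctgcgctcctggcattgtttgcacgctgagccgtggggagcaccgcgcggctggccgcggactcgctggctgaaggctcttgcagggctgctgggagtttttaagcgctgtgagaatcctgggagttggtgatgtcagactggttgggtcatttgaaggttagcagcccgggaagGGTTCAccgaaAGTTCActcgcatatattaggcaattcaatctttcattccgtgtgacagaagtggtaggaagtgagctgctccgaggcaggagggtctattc

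Both matches were DR5 elements. The Rarb element, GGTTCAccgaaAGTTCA, ran on the gene's strand from base -53 to base -37 counted from the start. The Cyp26a1 element read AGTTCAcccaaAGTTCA on the opposite strand and ran from base -32 to base -16. Both share the second hexamer AGTTCA. Of the 32851 promoters in the table, 0.0974% held a DR5 match, 0.222% a DR1 match and 0.268% a DR2 match. The Cyp26c1 and Nr2f2 promoters held none of the 3 in this window. The Cyp26a1 promoter held 26 CpG dinucleotides and the Rarb promoter 17, against 5 in Cyp26c1, 2 in Nr2f2 and a median of 7 over the table. A match describes the letters only, and binding of the receptor was not measured.

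Before differentiation, 4 of the 5 windows were rich in H3K27me3. H3K27me3 density is given per unit length, as a multiple of the mean autosomal density of the same library, with a 95% Poisson interval that covers counting error only. In undifferentiated XT67E1 cells it was 9.62 at Zfp703 (8.74 to 10.6), 6.89 at Nr2f2 (6.33 to 7.49), 6.03 at Cyp26c1 (5.32 to 6.80) and 5.87 at Cyp26a1 (5.12 to 6.70). Zfp703 lay above the other genes, while the intervals of Nr2f2, Cyp26c1 and Cyp26a1 overlapped. In undifferentiated LF2 and E14 cells the intervals of genes next to each other in the order overlapped. Undifferentiated LF2 cells had 10.4 at Zfp703, 10.1 at Cyp26a1, 9.86 at Cyp26c1 and 8.63 at Nr2f2, and undifferentiated E14 cells had 12.0 at Nr2f2, 11.0 at Zfp703, 10.6 at Cyp26a1 and 8.47 at Cyp26c1. In E14 the first and the last in this order were apart, since the interval of Nr2f2 (11.0 to 13.1) lay above that of Cyp26c1 (7.35 to 9.71). Chromosome 8, which holds Zfp703, itself had 1.49 times the mean autosomal H3K27me3 density in undifferentiated XT67E1 cells, 1.23 times in LF2 and 0.989 times in E14. Its part in the Zfp703 level was not tested.

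Rarb was unlike the other 4 when its long window was taken whole. Its H3K27me3 density was 0.843 times the autosomal mean in undifferentiated XT67E1 cells, 0.948 times in LF2 and 1.16 times in E14. Summed over the 7 libraries, the mark was highest in the Rarb bin chr14:17406001-17408000, which held 4.01 times the autosomal mean in undifferentiated XT67E1 cells, 9.63 times in LF2 and 5.60 times in E14. In XT67E1 the same bin had the most H3K4me3 reads of the Rarb window. A whole-window value for Rarb therefore covers mostly chromatin with little of either mark.

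**Figure D1:**
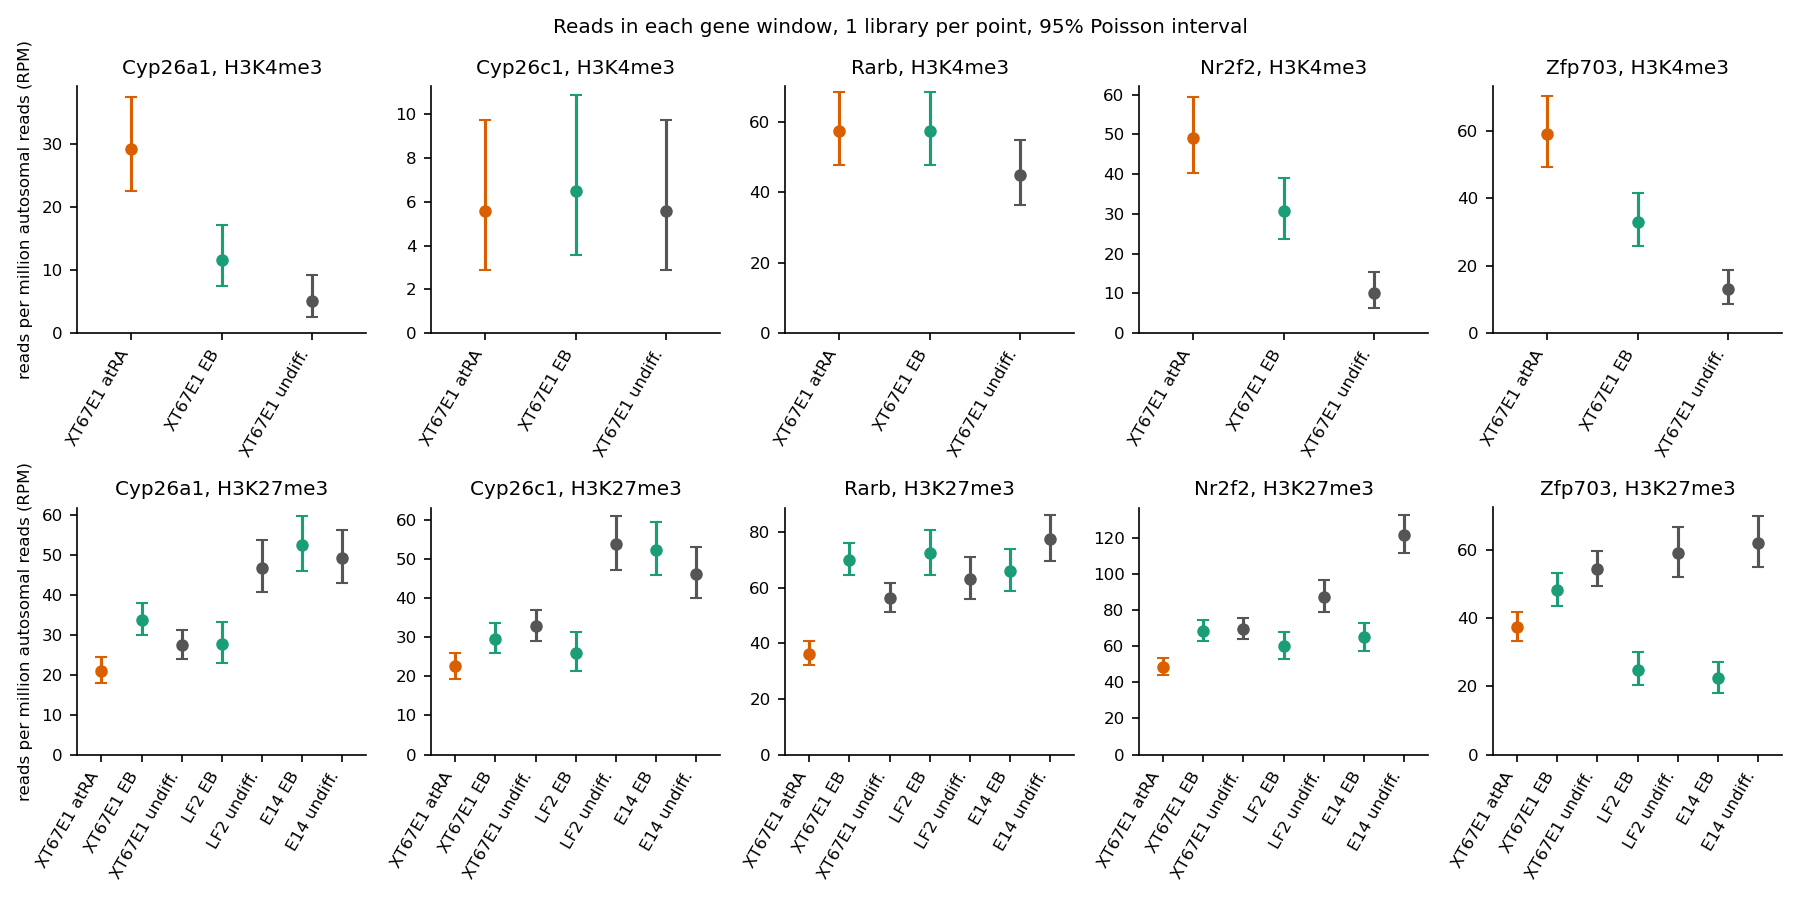
Reads in each gene window as RPM (reads per 1000000 autosomal reads), H3K4me3 in the upper row and H3K27me3 in the lower row, 1 library per point. Bars are 95% Poisson intervals for counting error. H3K4me3 at Cyp26a1, Nr2f2 and Zfp703 was highest with atRA, and H3K27me3 with atRA lay below undifferentiated XT67E1 cells in all 5 windows.

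H3K4me3 was higher after atRA than in undifferentiated XT67E1 cells at Cyp26a1, Nr2f2 and Zfp703, by 4.42-fold to 5.34-fold over the window. At Rarb the window as a whole was not clearly higher. Its bin of 2 kb with the most H3K4me3 reads was higher, but that bin was picked by those reads. Cyp26c1 had the same number of reads in both states. With 1 library per state there is no replicate check and no test. Log2 ratios below are scaled to autosomal reads with 1 read added to each count, and their 95% intervals, from the exact conditional binomial, cover counting error only.

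Cyp26a1 had 63 H3K4me3 reads with atRA, 25 in EBs and 11 in undifferentiated cells. That is 29.2 RPM with atRA, 11.6 RPM in EBs and 5.10 RPM in undifferentiated cells. The intervals of the atRA library did not overlap those of either other state. The log2 ratio of atRA over undifferentiated was 2.42 (1.58 to 3.59), that of EB over undifferentiated 1.12 (0.11 to 2.36) and that of atRA over EB 1.30 (0.65 to 2.07). The reads gathered in the bin chr19:37772001-37774000, with 40 reads with atRA, 14 in EBs and 3 in undifferentiated cells. The 15 reads with atRA in the Cyp26a1 bin just before it, at 37770001, stood against 1 in EBs and 3 in undifferentiated cells.

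Cyp26c1, a second retinoic acid hydroxylase, is the protein-coding gene next to Cyp26a1 on chromosome 19, per RefSeq. Its window had 12 H3K4me3 reads with atRA, 14 in EBs and 12 in undifferentiated cells. The log2 ratio was 0.00 for atRA over undifferentiated (-1.28 to 1.28), 0.21 for EB over undifferentiated and -0.20 for atRA over EB, all with intervals that include 0. No difference was detectable at this depth, and the first interval still allows a change of more than 2-fold in either direction. The bin with the most H3K4me3 reads had 5 with atRA, 2 in EBs and 4 in undifferentiated cells.

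Rarb, the retinoic acid receptor beta, had 124 H3K4me3 reads in its window with atRA, 124 in EBs and 97 in undifferentiated cells. The log2 ratio over the window was 0.35 for atRA over undifferentiated (-0.04 to 0.75) and 0.35 for EB over undifferentiated (-0.04 to 0.75). Both intervals include 0. In the bin at 17406001 there were 18 reads with atRA, 7 in EBs and 2 in undifferentiated cells, and in the Rarb bin after it 6 with atRA, 10 in EBs and 3 in undifferentiated cells. The atRA library was thus the highest in the first bin and the EB library in the second. In the first bin the log2 ratio was 2.66 for atRA over undifferentiated (1.11 to 6.32). This bin was picked from the 83 of the window for its H3K4me3 reads, most of which came from the atRA library. The interval does not allow for that choice, so the ratio is no support for a gain.

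Nr2f2 encodes the orphan nuclear receptor COUP-TFII. Its window had 106 H3K4me3 reads with atRA, 66 in EBs and 22 in undifferentiated cells. The log2 ratio was 2.22 for atRA over undifferentiated (1.60 to 3.00), 1.54 for EB over undifferentiated (0.87 to 2.35) and 0.68 for atRA over EB (0.23 to 1.15). The bin with the most reads, chr7:77504001-77506000, had 40 with atRA, 23 in EBs and 3 in undifferentiated cells. A second Nr2f2 bin, at 77510001, was high in the atRA library alone, with 19 reads with atRA, 2 in EBs and 1 in undifferentiated cells. There the log2 ratio of atRA over EB was 2.74 (1.20 to 6.40), against 0.77 (0.03 to 1.61) in the bin with the most reads. The second bin was singled out after its values were seen.

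Zfp703 encodes a zinc finger protein that acts as a transcriptional repressor. It had 127 H3K4me3 reads with atRA, 71 in EBs and 28 in undifferentiated cells. The log2 ratio was 2.14 for atRA over undifferentiated (1.58 to 2.83), 1.31 for EB over undifferentiated (0.69 to 2.03) and 0.83 for atRA over EB (0.41 to 1.28). Its bin chr8:28088001-28090000 had the most H3K4me3 reads of any bin in the 5 windows, with 67 with atRA, 26 in EBs and 3 in undifferentiated cells. The bin before it, at 28086001, had 37 reads with atRA, 24 in EBs and 6 in undifferentiated cells. Chromosome 8 had 1.43 times the mean autosomal H3K4me3 density with atRA, 1.43 times in EBs and 1.44 times in undifferentiated cells, so its density was about level across the 3 states.

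The choice of scaling of the libraries moved 4 of these H3K4me3 intervals across 0. With scaling to low-coverage bins the Cyp26a1 ratio of EB over undifferentiated was 0.96 (-0.05 to 2.20). With scaling to the median bin ratio the Nr2f2 ratio of atRA over EB was 0.41 (-0.04 to 0.89), and the Rarb window lay above 0 both with atRA (0.02 to 0.81) and in EBs (0.29 to 1.09) over undifferentiated cells.

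**Figure D2:**
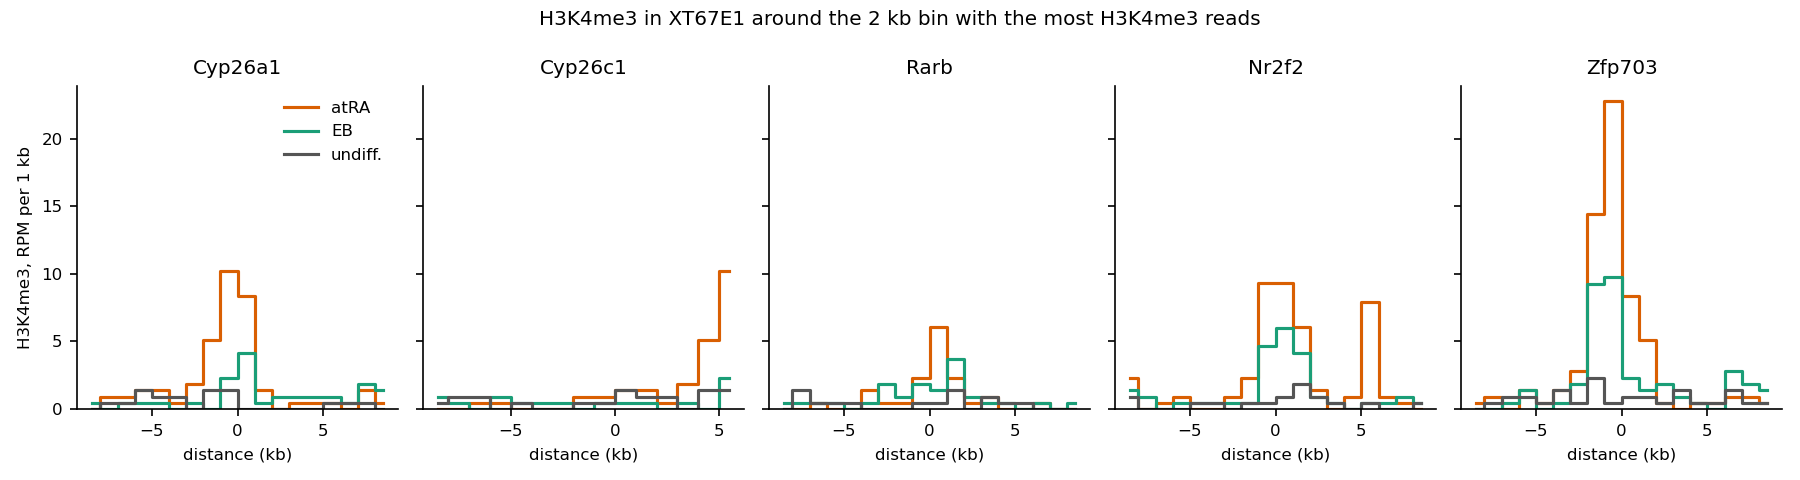
H3K4me3 in XT67E1 in steps of 1 kb, in RPM, against the distance in kb from the centre of the bin with the most H3K4me3 reads in each window; 1 library per line. The atRA line has a single peak at Cyp26a1 and Zfp703 and a separate second peak at Nr2f2. The rise at the right edge of the Cyp26c1 panel lies inside the Cyp26a1 window and belongs to the Cyp26a1 peak.

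Bins of 2 kb were also called higher or lower where the ratio was at least 2-fold, its counting interval excluded 1 and the 2 libraries together held at least 20 reads. The same call was made for all bins of the genome as background. For H3K4me3 with atRA over undifferentiated, 7 of the 115 bins had enough reads, of which 6 were called higher, against 4.81% of all bins tested, and 0 lower, against 12.1%. Those 6 were 2 of Nr2f2, 2 of Zfp703, 1 of Cyp26a1 and 1 of Rarb. In EBs over undifferentiated 3 bins had enough reads, and 3 were called higher (background 2.82%) and 0 lower (background 13%). Between atRA and EBs 4 of 7 bins were called higher with atRA (background 5.52%) and 0 lower (background 2.43%). Bins with few reads in both libraries cannot pass, and the bins that passed did so mainly through the library of differentiated cells, atRA or EB, so these counts are no support for a gain.

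**Figure D3:**
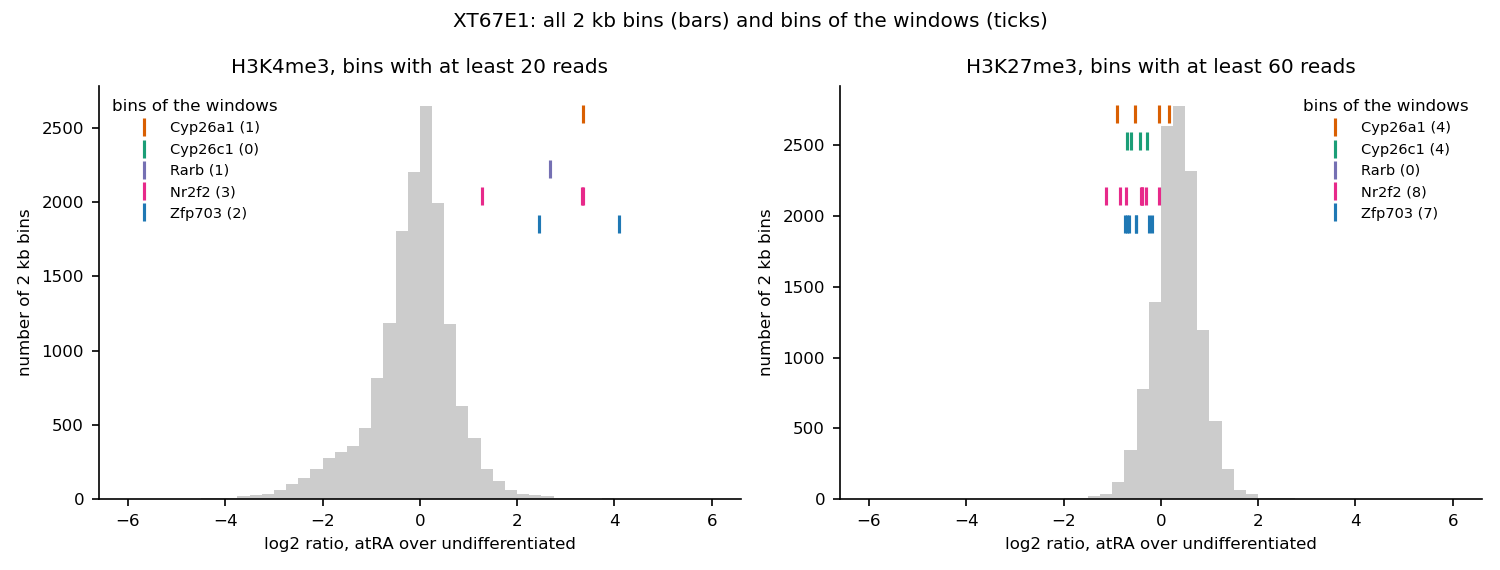
Log2 ratio of atRA over undifferentiated XT67E1 cells for all 2 kb bins (grey bars, number of bins) and for bins of the 5 windows (coloured ticks, number in brackets), for H3K4me3 with at least 20 reads and H3K27me3 with at least 60. The ticks for H3K4me3 lie to the right of the bulk of bins and those for H3K27me3 mostly to the left.

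H3K27me3 with atRA was lower than in undifferentiated XT67E1 cells over each of the 5 windows, at 0.647 to 0.769 of the undifferentiated level. Cyp26a1 had 168 reads with atRA, against 219 in undifferentiated cells, a log2 ratio of -0.38 (-0.68 to -0.08). Cyp26c1 had 181 reads with atRA, against 264 in undifferentiated cells, a ratio of -0.54 (-0.82 to -0.27). Rarb had 291 with atRA, against 451 in undifferentiated cells, a ratio of -0.63 (-0.85 to -0.42). The interval of each of these 3 windows lay below 0. The Rarb window was below the mean autosomal density in both libraries, at 0.544 times with atRA and 0.843 times in undifferentiated cells. Its bin with the most H3K27me3 had 14 reads with atRA, against 26 in undifferentiated cells. There the log2 ratio was -0.85 and its interval included 0 (-1.94 to 0.10). Nr2f2 had 390 reads with atRA, against 559 in undifferentiated cells, a log2 ratio of -0.52 (-0.71 to -0.33). Zfp703 had 300 with atRA, against 437 in undifferentiated cells, a ratio of -0.54 (-0.76 to -0.33). The 5 ratios lay within -0.63 to -0.38, although H3K4me3 differed widely among the genes. Cyp26c1, with no detectable H3K4me3 difference, had a ratio much like that of Zfp703. When the libraries were scaled to low-coverage bins in place of all autosomal reads, the Cyp26a1 interval included 0 (-0.55 to 0.05) and the other 4 stayed below it.

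Among bins rich in H3K27me3, with at least 60 reads in the 2 libraries, the median over the genome was 0.33 for atRA over undifferentiated (quartiles 0.04 and 0.62, 12529 bins), while the median of the 23 such bins in the windows was -0.51. Of the 35 bins of the windows with at least 20 reads, 5 were called lower, against 2.14% of all bins, and 0 higher, against 3.66%. Of the 5, 2 belonged to Nr2f2, 2 to Rarb and 1 to Cyp26c1. The Rarb bin at 17398001 had 2 H3K27me3 reads with atRA, against 19 in undifferentiated cells, and the Rarb bin at 17408001 had 3 with atRA, against 17 in undifferentiated cells. Both reached 20 reads mainly through the undifferentiated library, so the counts of bins called are no support for a loss. Most of the 23 bins with at least 60 reads also held more reads in the undifferentiated library. The windows were chosen with results known, so the median of -0.51 is a description and no support for a loss either.

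Within the windows the lower H3K27me3 was not spread evenly at Cyp26a1. Its H3K4me3-rich bin had 60 H3K27me3 reads with atRA, against 53 in undifferentiated cells, a log2 ratio of 0.18. In the rest of its bins the ratio was -0.60, with 116 reads with atRA, against 177 in undifferentiated cells. The difference between the lead bin and the rest was 0.78 (0.15 to 1.41, counting error). At Cyp26c1, Rarb, Nr2f2 and Zfp703 the same difference had an interval that included 0.

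EBs of XT67E1 did not share the lower H3K27me3 of the atRA library. Cyp26a1 had 268 reads in EBs, against 219 in undifferentiated cells, a log2 ratio of 0.30 (0.04 to 0.57). Rarb had 558 in EBs, against 451 in undifferentiated cells, a ratio of 0.32 (0.14 to 0.50). Both lay above 0, Rarb under each of 3 scalings and Cyp26a1 under all but the scaling to low-coverage bins, with 0.19 (-0.07 to 0.45). The intervals of Cyp26c1 at -0.15 (-0.41 to 0.11), Nr2f2 at -0.03 (-0.20 to 0.15) and Zfp703 at -0.17 (-0.38 to 0.03) included 0, although with the scaling to low-coverage bins those of Cyp26c1 (-0.52 to -0.0038) and Zfp703 (-0.49 to -0.09) lay below it. Of the 42 bins with enough reads 0 were called higher (background 2.23%) and 0 lower (background 4.07%). H3K4me3 at Nr2f2 and Zfp703 in the same EBs was 2.91-fold and 2.48-fold that of undifferentiated cells.

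Set directly against EBs, the atRA library was lower in all 5 windows. The log2 ratio of atRA over EB was -0.95 at Rarb, -0.68 at Cyp26a1, -0.49 at Nr2f2, -0.39 at Cyp26c1 and -0.37 at Zfp703. Each interval lay below 0, while with the scaling to low-coverage bins those of Cyp26c1 (-0.43 to 0.14) and Zfp703 (-0.34 to 0.10) included it. The 2 contrasts against undifferentiated cells share that library. Of 35 bins, 3 were called lower (background 1.78%) and 0 higher (background 5.05%), of which 2 belonged to Cyp26a1 and 1 to Rarb. The Rarb bin reached the read minimum mainly through the EB library, with 3 reads with atRA and 20 in EBs. The counts of bins called are therefore no support for a difference.

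**Figure D4:**
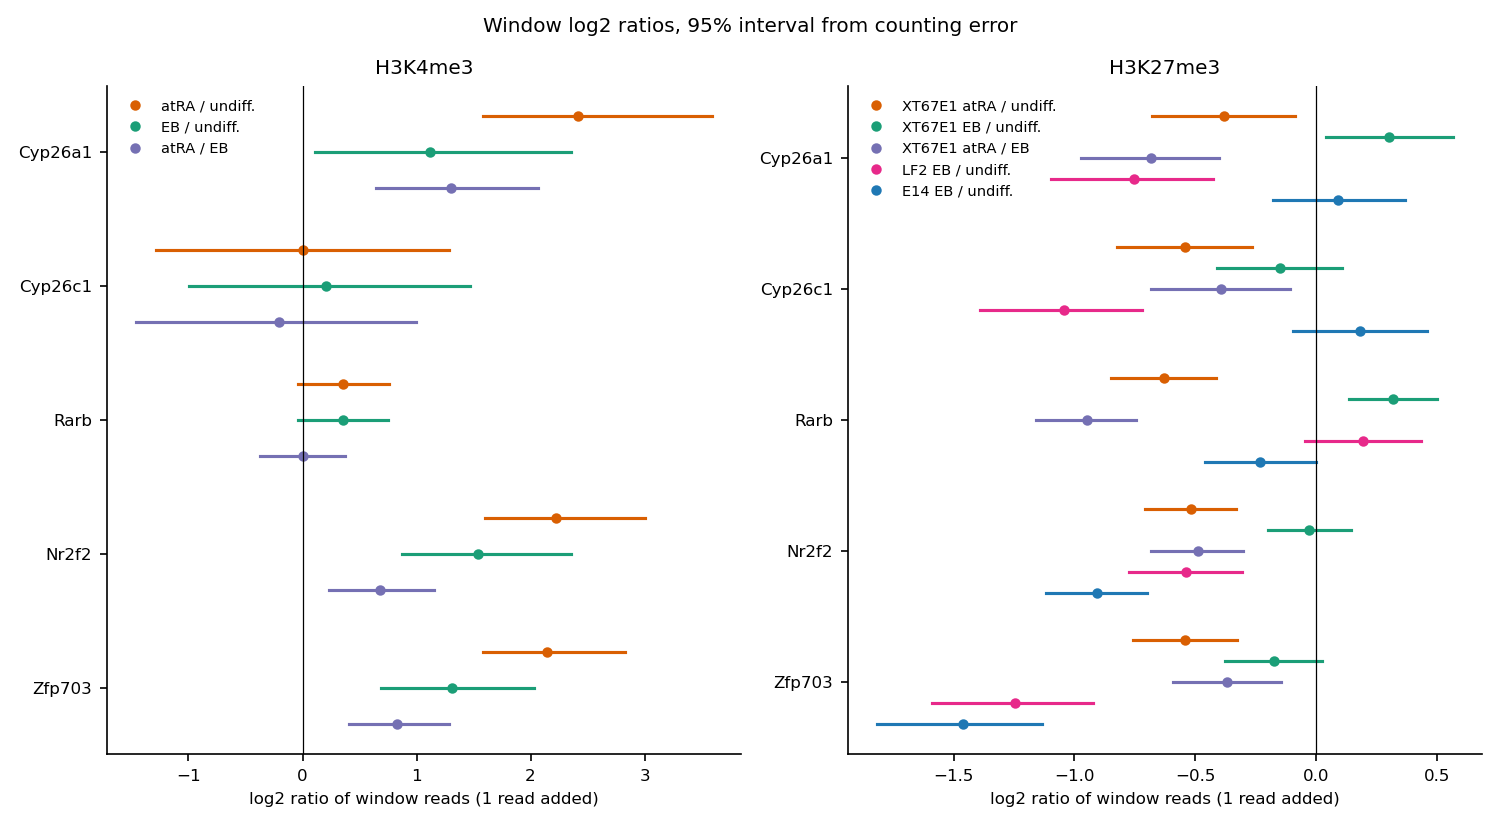
Log2 ratio of window reads for each gene and comparison, H3K4me3 on the left and H3K27me3 on the right, with 95% intervals for counting error and a line at 0. For H3K27me3 the atRA ratios of XT67E1 lie together below 0, and the EB ratios differ between XT67E1, LF2 and E14, most at Zfp703.

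The H3K27me3 ratio of EBs over undifferentiated cells differed between the 3 lines at these genes. In LF2, Cyp26a1 had 119 reads in EBs, against 204 in undifferentiated cells, and Cyp26c1 had 112 in EBs, against 235 in undifferentiated cells. In E14, Cyp26a1 had 232 in EBs, against 217 in undifferentiated cells, and Cyp26c1 had 232 in EBs, against 204 in undifferentiated cells. The hydroxylase genes were lower in EBs of LF2, with log2 ratios of -0.75 (-1.10 to -0.43) at Cyp26a1 and -1.04 (-1.39 to -0.72) at Cyp26c1. In E14 the ratios were 0.09 (-0.18 to 0.37) at Cyp26a1 and 0.18 (-0.09 to 0.46) at Cyp26c1, with intervals that included 0, and with the scaling to low-coverage bins that of Cyp26c1 lay above it (0.01 to 0.57). The difference of the log2 ratios, LF2 minus E14, was -0.85 at Cyp26a1 (-1.27 to -0.43) and -1.23 at Cyp26c1 (-1.65 to -0.80), counting error only. The 2 lines share the strain label 129/Ola, and with 1 library per line and state the line cannot be told apart from the library.

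Nr2f2 and Zfp703 were lower in EBs of both LF2 and E14. Nr2f2 had 259 reads in LF2 EBs, against 381 in undifferentiated LF2 cells, a log2 ratio of -0.54 (-0.77 to -0.31), and the interval included 0 when libraries were scaled to the median bin ratio (-0.44 to 0.02). In E14 it had 287 in EBs, against 537 in undifferentiated cells, a ratio of -0.90 (-1.12 to -0.70). Zfp703 had 107 in LF2 EBs, against 258 in undifferentiated LF2 cells, and 99 in E14 EBs, against 274 in undifferentiated E14 cells. Its ratios of -1.24 (-1.59 to -0.92) in LF2 and -1.46 (-1.82 to -1.13) in E14 were the lowest of the 5 genes in each line. XT67E1 stood apart from both, with a Zfp703 ratio higher by 1.07 than in LF2 (0.69 to 1.45) and by 1.29 than in E14 (0.90 to 1.67, log2). These intervals cover counting error only. XT67E1 also differed from LF2 and E14 in strain label and read depth, so the line cannot be told apart from strain, depth or the single libraries. A difference in the strength of the pull-down was not tested. In LF2 the read share of chromosome 8 was itself higher in EBs by 0.17 (log2), the highest of the 19 autosomes, so a scaling to this chromosome gives Zfp703 a lower ratio, not a higher one.

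At Rarb the EB ratio over the window was 0.19 (-0.04 to 0.43) in LF2 and -0.23 (-0.46 to -0.0013) in E14. These depended on the scaling: LF2 lay above 0 with the median bin ratio (0.29 to 0.76), and E14 included 0 with low-coverage bins (-0.35 to 0.11). The read share of chromosome 14, which holds Rarb, itself had a log2 ratio of 0.09 in LF2 and -0.04 in E14. A scaling to this chromosome thus brings both Rarb ratios closer to 0. The Rarb bin at 17406001 differed from its window in LF2, with 10 reads in EBs, against 34 in undifferentiated cells. Its log2 ratio of -1.65 differed from 0.34 in the rest of the window by -1.99 (-3.04 to -0.95). H3K4me3 was not profiled in LF2 or E14, so the H3K4me3-rich bin of a window is that of XT67E1. At Nr2f2 this bin was likewise lower by more than the rest of its window. The difference was -1.21 (-2.17 to -0.26) in LF2 and -0.91 (-1.65 to -0.18) in E14. In E14 the same held at Zfp703, with -0.98 (-1.76 to -0.20), and at Cyp26a1, with -0.94 (-1.51 to -0.36). In XT67E1 EBs none of the 5 windows had an interval of this difference that excluded 0.

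Of 30 bins with enough reads in LF2, 10 were called lower in EBs (background 12.5%) and 0 higher (background 2.04%). In E14, 7 of 32 were called lower (background 6.17%) and 0 higher (background 9.11%). The bins called lower passed the read minimum mainly through the undifferentiated library, so these counts are no support for a loss. The median log2 ratio of the bins of the windows with at least 60 reads was -0.92 in LF2, against -0.36 over all such bins, and -0.63 in E14, against 0.25 over all such bins. The LF2 comparison thus ran lower across rich bins in general. Most bins of the windows with at least 60 reads held more reads in the undifferentiated library, in LF2 and in E14. Their medians are therefore a description and no support for a loss.

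**Figure D5:**
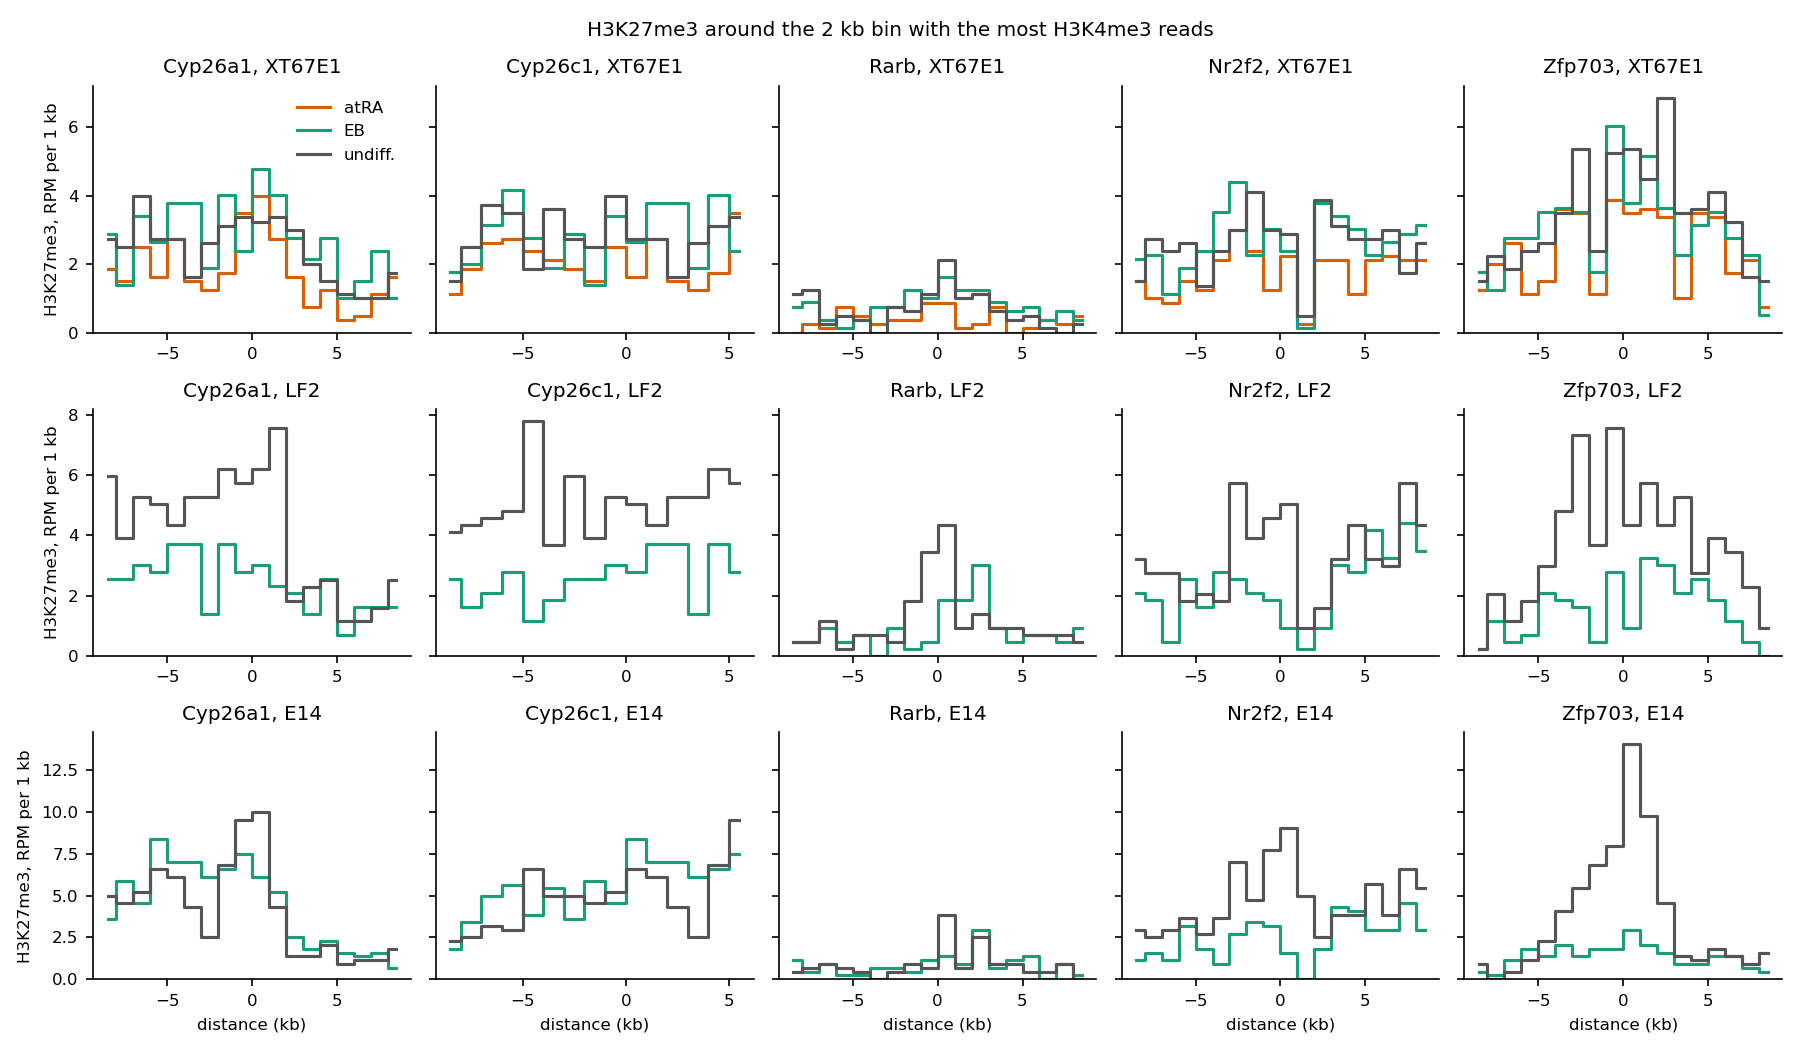
H3K27me3 in steps of 1 kb, in RPM, with a row per cell line and 1 library per line drawn. Distance in kb is from the centre of the bin with the most H3K4me3 reads of XT67E1 in each window. In LF2 the EB profile runs below the undifferentiated one across Cyp26c1, and in E14 the peaks of Nr2f2 and Zfp703 are lower in EBs than in undifferentiated cells.

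EBs were tested against undifferentiated cells over the 3 lines in bins of 10 kb, the contrast that has replication in these data. In limma with the cell line as a block and Benjamini-Hochberg adjustment over 227429 bins, 0 of the 23 tested bins of the windows passed an adjusted p of 0.05, against 0.133% of all bins, and 1 passed with limma's voom. At an unadjusted p under 0.05 there were 7 of 23, against 7.77% of all bins. The smallest adjusted p, 0.15, belonged to the Zfp703 bin chr8:28080001-28090000, with a log2 change of -1.04 (SE 0.28). Its change was -0.07 in XT67E1, -1.53 in LF2 and -1.51 in E14, lower in 3 of 3 lines but by very different amounts. Leaving out XT67E1 gave -1.52 with a limma adjusted p of 0.0400, leaving out LF2 gave -0.79 with 0.214 and leaving out E14 gave -0.80 with 0.375. The Nr2f2 bins changed by -0.64 and -0.60 with limma adjusted p of 0.546 and 0.601, and the Cyp26a1 bin by -0.23 with 0.913. A Rarb bin at 17390001, singled out after its values were seen, was higher in EBs of all 3 lines. The change was 0.35 in XT67E1, 1.11 in LF2 and 1.00 in E14, with a limma adjusted p of 0.277. Rarb bins went in both directions. Those at 17290001, 17320001 and 17410001 were also higher in all 3 lines, and those at 17250001 and 17260001 were lower in all 3. The Rarb bin at 17400001, which holds the H3K27me3 peak of the window, changed by -0.19.

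The 2 kb bins outside the windows most like each gene's H3K4me3-rich bin were sought among 1324 bins with at least 60 reads of each mark, by Pearson's r of log2 RPM over the 10 libraries, centred within each mark. The bin chr8:94324001-94326000 was the most alike to Nr2f2 (r = 0.987) and to Cyp26a1 (r = 0.925), and the second for Zfp703 (r = 0.954). It had 30 H3K4me3 reads with atRA, 23 in EBs and 7 in undifferentiated cells. Rarb was most like chr9:66896001-66898000 (r = 0.975), with 58 H3K4me3 reads with atRA, 28 in EBs and 7 in undifferentiated cells. Zfp703 was most like chr10:60292001-60294000 (r = 0.956), and Cyp26c1 was most like chr12:71212001-71214000 (r = 0.933), which had 28 H3K4me3 reads with atRA, 18 in EBs and 23 in undifferentiated cells. The Cyp26c1 bin itself was far below this minimum of 60 H3K4me3 reads, with 5 with atRA, 2 in EBs and 4 in undifferentiated cells. Its H3K4me3 profile is therefore largely counting error. The Rarb and Cyp26a1 bins were also below the minimum. The r values come from a search for the highest, and the bins share the libraries and their depth.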

How the data were processed

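The deposited files, 1 per library, are read intervals made by the authors. Per the file contents each row is a 200 bp interval with no strand and no other value, and no interval is repeated within a file. The build is mm9, per the submitters' processing notes. How reads were aligned, filtered and extended is not given in the sources used here. Files of a set hold equal read numbers, so a stronger or weaker pull-down cannot be seen in the totals.

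Interval midpoints were counted in the 5 windows and in 2 kb and 10 kb bins with Python 3.11.15, numpy 2.4.6 and pandas 2.3.3, and scaled to autosomal reads. Intervals are 95% exact conditional binomial (scipy 1.17.1) or Poisson, for counting error only. In limma 3.58.1 (R 4.3.3), log2 RPM of 10 kb bins with at least 60 reads over 6 libraries was tested with an intensity trend, two-sided, and the total degrees of freedom of 43.3 came mostly from pooling over bins. The lines pair the libraries because each line gave both states, and the deviations from the state means correlated within XT67E1 (0.185), E14 (0.240) and LF2 (0.0844). The scripts were tested on simulated data. Groups come from the sample labels, with 1 library each, and the lines were taken as the replicates for limma.

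Members, lists and tests were chosen with earlier results of these data known. The named bins set beforehand are the 5 windows, their bins with the most reads of either mark and the 2 bins most like each. All other bins named, of 2 kb or 10 kb, were picked with their values seen. Alternatives were a pseudocount of 5 reads, scalings to low-coverage bins, to the median bin ratio and to the window's chromosome, windows widened by 5 kb, the lead bin, no read minimum, voom, no block, 5 kb bins and leaving out each line. Other genes of the pathway were not analysed here, since no mm9 annotation was used.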

Additional observations from a re-analysis of the deposited data

Results flagged for a closer look

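Over the whole windows of Cyp26a1 and Rarb, H3K27me3 changed in opposite directions in different lines or treatments, with counting intervals that excluded 0 on both sides. With scaling to low-coverage bins this still held only for Rarb with atRA against EBs, since the intervals of Cyp26a1 in XT67E1 EBs (-0.07 to 0.45), of Cyp26a1 with atRA (-0.55 to 0.05) and of Rarb in E14 EBs (-0.35 to 0.11) then included 0. None of these differences was tested, since each rests on 1 library per line and state. At Cyp26a1 the EB ratio was 0.30 in XT67E1 and -0.75 in LF2, a difference of 1.06 (log2). At Rarb the EB ratio was 0.32 in XT67E1 and -0.23 in E14, a difference of 0.55, and the E14 interval ended at -0.0013. Within XT67E1, Cyp26a1 had a ratio over undifferentiated cells of -0.38 with atRA and 0.30 in EBs, a difference of -0.68. Rarb had -0.63 with atRA and 0.32 in EBs, a difference of -0.95. Both of these last contrasts use the same undifferentiated library. In the single bin with the most H3K27me3 reads, Rarb had -0.85 with atRA, -0.28 in XT67E1 EBs and -0.81 in E14 EBs. In that of Cyp26a1 the ratio was 0.18 with atRA, 0.12 in XT67E1 EBs and -1.01 in LF2 EBs. Opposite signs thus remained in the single bin only for Cyp26a1 between XT67E1 and LF2 EBs. Apart from LF2, these single-bin intervals included 0.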

How the results depend on the processing

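Of the 40 window ratios, 28 had an interval that excluded 0, and 165 of their 168 alternative values (6 per ratio) kept the sign. The 3 that did not came from taking the bin with the most reads of the mark compared in place of the window: for H3K27me3, Cyp26a1 gave 0.18 for atRA over undifferentiated and 0.062 for atRA over EB, and Rarb gave -0.28 for XT67E1 EB over undifferentiated. The alternatives use the same reads, so a kept sign is no independent support. Some of the 28 intervals came to include 0 with the scaling to low-coverage bins or to the median bin ratio, as given above. The other 12 of the 40 ratios, whose main interval included 0, changed sign in 12 of 72 alternative values. This happened under both scalings, the wider window and the single bin. The largest such shift was at Rarb for H3K27me3 in LF2, at -1.65 in the single bin, against 0.19. At Cyp26c1 the wider window gave 1.07 for H3K4me3 atRA over EB, against -0.20. That wider window reaches into the H3K4me3-rich bin of Cyp26a1, so its value is not one of Cyp26c1 alone. With the single bin the median over the 5 genes was 3.36 (main value 2.14) for H3K4me3 atRA over undifferentiated, 1.25 (0.68) for H3K4me3 atRA over EB and -0.63 (-0.23) for H3K27me3 in E14. For H3K27me3 atRA over EB the median was -0.24 with scaling to low-coverage bins and -0.69 with scaling to the median bin ratio, against -0.49, and in LF2 it was -0.42 with scaling to the median bin ratio, against -0.75. The scaling to low-coverage bins shifts every H3K27me3 ratio of atRA over EB by 0.25 and of LF2 by -0.23, and the scaling to the median bin ratio shifts them by -0.20 and 0.33. Without a read minimum, 5 bins were called higher in H3K4me3 EB over undifferentiated (3 with it), 8 lower in H3K27me3 atRA over undifferentiated (5), 1 higher and 1 lower in XT67E1 EB over undifferentiated (0 and 0) and 10 lower in atRA over EB (3). The remaining causes were not tested.

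In the limma fit the count of bins called was 1 with voom and 1 with 5 kb bins, against 0, and leaving out 1 line at a time gave 0 to 1. The called bin was each time a Zfp703 bin. Without the replicate block, that is without pairing the libraries by line, the count was 0. Apart from Rarb, the H3K4me3 windows held 11 to 28 reads in undifferentiated cells, which sets the width of their intervals.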
